A study of Homo sapiens with 21 samples.

Results

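The MHC class I presentation genes are the heavy chains HLA-B, HLA-C, HLA-E and HLA-F, the light chain B2M, the peptide transporter genes TAP1 and TAP2, and TAPBP, which encodes tapasin. They were taken by name: 8 of the 28808 genes listed in any of the 6 deposited expression tables. Of these, 6 reached 1 FPKM in at least 3 libraries and were tested among 13450 genes. TAP2 and HLA-F stayed below that level. FPKM is the number of fragments on a gene, scaled to the gene's length and the library's depth, and every log2 difference below is of FPKM + 1.

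The cells were C3A, an established human hepatoma line cloned from HepG2, so all libraries come from 1 clone grown in culture. Unexposed cells gave 6 libraries, numbered 1 to 6, and each of 5 exposures gave 3. Glyphosate, a herbicide, was used at 5.6 µM (0.95 µg/mL), and AMPA (aminomethylphosphonic acid), into which glyphosate degrades, was given at 34 µM, or 3.7 µg/mL. The auxin-type herbicide 2,4-D was used at 2.5 µM (0.56 µg/mL). The remaining exposures were AMPA+2,4-D and glyphosate+2,4-D at those same concentrations. All exposures lasted 48 h, at concentrations 1000-fold below the IC50 per the labels. The labels name neither a batch nor separate cultures, so p-values measure the spread between these libraries, which may be technical. Unexposed libraries 1 to 3 and 4 to 6 stood apart from each other over much of the table, so the tested members were also compared with either set. For other genes, calls lost against a set are given for some and not for all. Because all exposures were compared with the same unexposed libraries, exposure cannot be told apart from anything else that the exposed libraries share.

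MHC class I molecules carry short peptides from the inside of a cell to its surface, where cytotoxic T cells and natural killer cells read them. The proteasome cuts proteins into peptides, TAP1 and TAP2 form the transporter that moves them into the endoplasmic reticulum, and tapasin holds an empty heavy chain and B2M next to that transporter until a peptide fits. HLA-B and HLA-C are classical, highly polymorphic heavy chains, while HLA-E is a near-invariant one that presents signal peptides of other class I chains to natural killer cells. Transcription of the heavy chains and B2M is driven by interferon-response, kappa B and SXY elements, the last bound by RFX, CREB and NF-Y factors together with the co-activator NLRC5. Hepatocytes carry little class I at rest and raise it under interferon.

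Sequences around a RefSeq start of 5 members are shown because genes of this pathway share interferon-response and kappa B elements. The 5 include members that were called higher, called lower and not called after exposure. Each window is RefSeq sequence of GRCh38.p14, 5′ to 3′ on the gene's own strand. It runs from 250 bases before to 50 bases after a RefSeq start of the gene. Capitals mark, on either strand, matches to the interferon-stimulated response element (GAAA, any 2 bases, GAAA), to its shorter form GAANNGAAA or to the kappa B consensus; where matches overlap the capitals run together.
B2M: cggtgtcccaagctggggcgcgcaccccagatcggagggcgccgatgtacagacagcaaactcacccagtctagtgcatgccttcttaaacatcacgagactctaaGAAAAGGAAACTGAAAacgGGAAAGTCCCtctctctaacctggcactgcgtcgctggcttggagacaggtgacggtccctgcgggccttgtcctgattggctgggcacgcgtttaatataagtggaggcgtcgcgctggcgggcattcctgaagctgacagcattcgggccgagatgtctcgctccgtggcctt
HLA-C: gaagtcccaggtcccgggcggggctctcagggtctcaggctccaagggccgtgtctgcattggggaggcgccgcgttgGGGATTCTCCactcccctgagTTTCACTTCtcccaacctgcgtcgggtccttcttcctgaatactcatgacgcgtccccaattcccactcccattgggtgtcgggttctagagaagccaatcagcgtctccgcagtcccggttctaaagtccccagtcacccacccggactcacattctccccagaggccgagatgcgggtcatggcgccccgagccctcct
HLA-B: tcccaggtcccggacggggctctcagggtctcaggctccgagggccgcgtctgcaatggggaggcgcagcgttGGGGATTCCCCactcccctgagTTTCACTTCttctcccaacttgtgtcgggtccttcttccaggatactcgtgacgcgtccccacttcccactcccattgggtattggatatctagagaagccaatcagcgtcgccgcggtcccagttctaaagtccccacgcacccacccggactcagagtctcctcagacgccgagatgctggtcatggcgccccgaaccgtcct
TAP1: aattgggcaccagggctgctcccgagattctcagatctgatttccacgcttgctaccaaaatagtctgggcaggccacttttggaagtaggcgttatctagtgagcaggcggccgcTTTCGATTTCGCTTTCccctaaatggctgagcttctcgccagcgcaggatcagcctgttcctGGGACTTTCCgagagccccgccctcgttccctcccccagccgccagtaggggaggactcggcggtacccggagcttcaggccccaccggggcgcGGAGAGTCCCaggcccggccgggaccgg
TAPBP: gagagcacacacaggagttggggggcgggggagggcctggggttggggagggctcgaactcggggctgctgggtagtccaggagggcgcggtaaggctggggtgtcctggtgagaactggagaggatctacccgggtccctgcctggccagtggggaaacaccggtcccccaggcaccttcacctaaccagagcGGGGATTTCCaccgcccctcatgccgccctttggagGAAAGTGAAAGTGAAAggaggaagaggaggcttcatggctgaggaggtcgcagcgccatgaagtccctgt

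The B2M window is chr15:44711267-44711566 on the plus strand. The other 4 lie on the minus strand, HLA-C at chr6:31272043-31272342, HLA-B at chr6:31357130-31357429, TAP1 at chr6:32853655-32853954 and TAPBP at chr6:33314029-33314328. The TAP1 and TAPBP windows shown lie wholly inside the spans given below for these genes, so they are not upstream of those spans. The TAP1 window is 1 of 2, and the other holds no match to these 3 motifs. Windows were found for 7 of the 8 members, and HLA-E was not searched. The full interferon-stimulated response element was found in 5 of the 7 members, B2M, TAP1, TAP2, TAPBP and HLA-F, against 3.57% of 34796 windows of the same length. HLA-B, HLA-C and TAP2 held the shorter form, which 7.65% of windows hold and which was chosen after these sequences had been seen. The kappa B consensus was found in HLA-B, HLA-C, B2M, TAP1 and TAPBP, against 7.73% of windows. The CCAAT box that NF-Y binds was found in 5 members (34.6% of windows) and TGACG, the core of a CREB site, in 4 (24.5%). Members that were higher and members that were lower after exposure both held the interferon and kappa B letters. A match describes these letters and does not show a bound site.

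Levels in unexposed cells spanned a wide range. B2M was highest at 49.0 ± 2.06 FPKM (SD, n = 6), followed by HLA-E at 38.3 ± 2.06, HLA-C at 23.4 ± 2.12, TAPBP at 8.47 ± 0.546, TAP1 at 6.07 ± 0.698, HLA-B at 1.95 ± 0.521 and TAP2 at 0.823 ± 0.0788. HLA-F was at 0 to 0.0224 FPKM. The tables divide by the union of all annotated exons, which for B2M is 6079 bases against 1705 in its longest principal transcript. Per kilobase of the longest principal transcript the order was unchanged, with B2M at 175, HLA-E at 43.8, HLA-C at 38.2 and TAPBP at 22.7 in unexposed cells. All members except B2M lie in the MHC region of chromosome 6. HLA genes differ between people, and how reads from alleles unlike the reference were placed is not given in the sources used here, so the low HLA-B level is the level of reads assigned to that gene.

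Against all 6 unexposed libraries, B2M and HLA-E were higher in all 5 exposures, HLA-C was higher in 4, TAPBP was lower in all 5 and TAP1 was lower in 4, while HLA-B did not pass the test in any. In bulk RNA, fewer cells of a type and less RNA per cell cannot be told apart. The calls are limma tests with Benjamini-Hochberg adjustment over all 13450 genes and a threshold of 0.05. With glyphosate, 3 of the 6 tested members were higher and 2 lower, beside 27.6% of all genes tested that were higher and 25.0% that were lower. AMPA gave 3 higher and 2 lower (28.0% and 24.7% of all genes). 2,4-D gave 3 higher and 2 lower (24.9% and 22.5%). Glyphosate+2,4-D gave 3 higher and 1 lower (25.3% and 22.6%), and AMPA+2,4-D gave 2 and 2 (26.0% and 24.3%). Between 47.4% and 52.7% of the genes tested were called in an exposure, so a call as such sets no member apart. The median log2 difference of the 6 tested members ran from -0.05 with AMPA+2,4-D to 0.22 with AMPA, beside medians of all genes tested from 0.00 to 0.01.

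**Figure D1:**
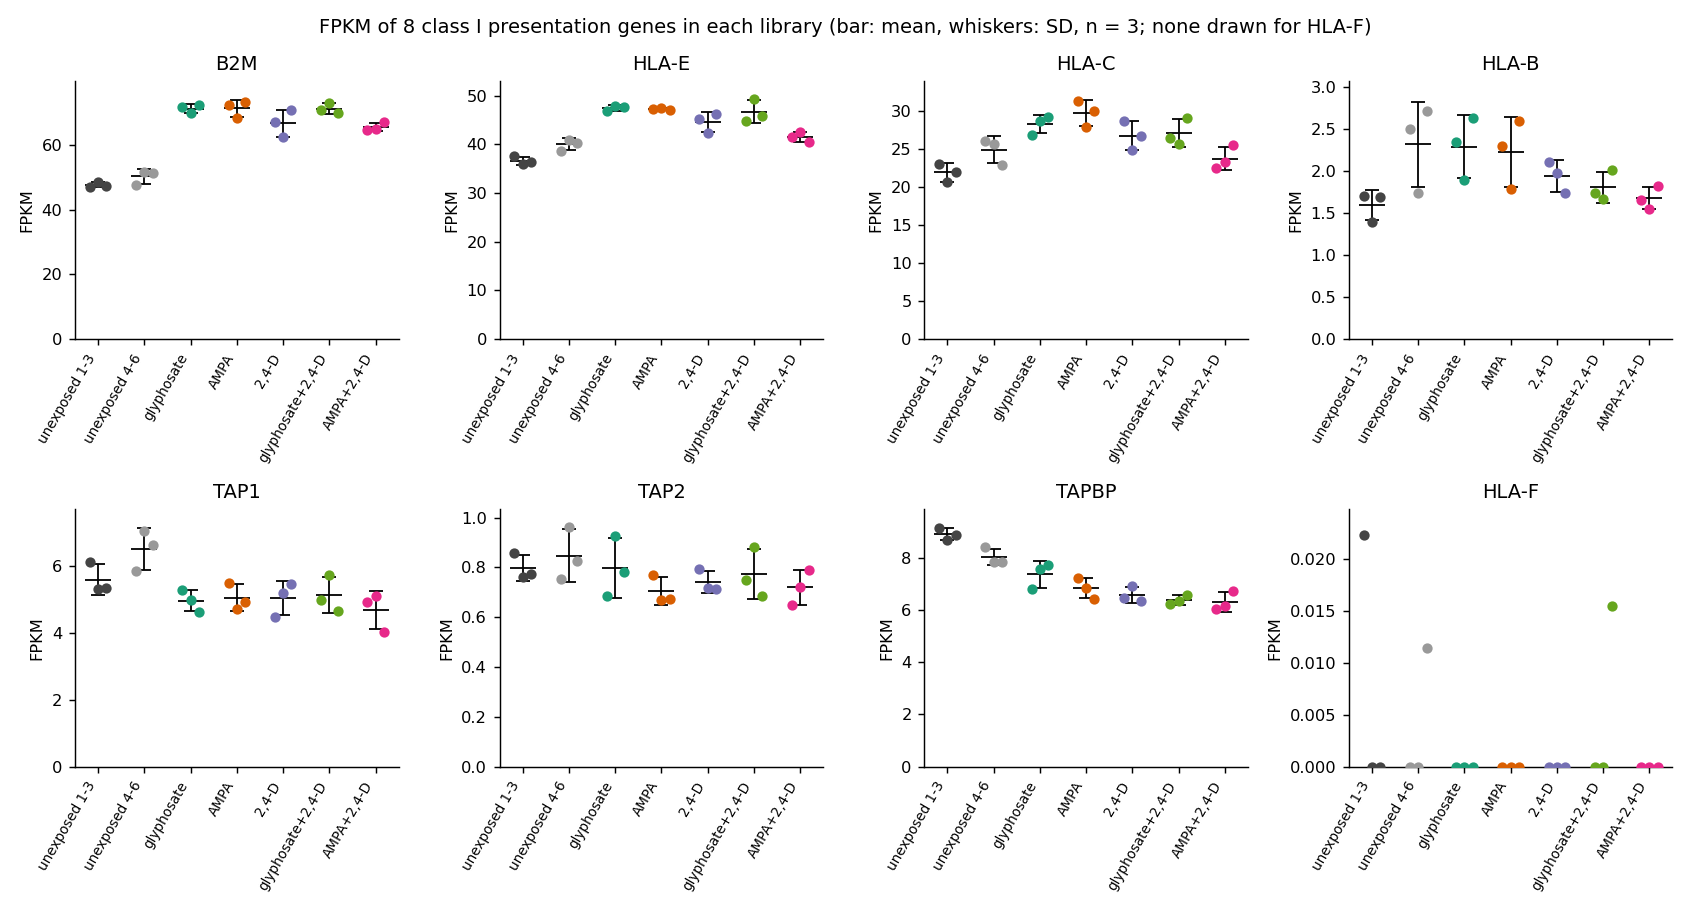
FPKM of the 8 genes in each of 21 libraries, 1 panel per gene, with the unexposed libraries in their 2 sets of numbers; points are libraries, horizontal bars are means and whiskers are SD (n = 3 per set). All 15 exposed libraries lie above all unexposed ones for B2M and below them for TAPBP, whereas the exposed HLA-B libraries (1.55 to 2.63 FPKM) lie within the range of the 6 unexposed ones (1.39 to 2.71).

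B2M (ENSG00000166710, GRCh38 chr15:44711487-44718877, plus strand) encodes the light chain shared by all classical and most class I-like molecules. The 6 unexposed libraries lay at a lowest of 47.1, a median of 48.1 and a highest of 51.7 FPKM. With glyphosate the 3 libraries gave 71.7, 69.8 and 72.5 FPKM, and with AMPA 72.5, 68.4 and 73.2. With 2,4-D they gave 67.1, 62.4 and 70.8 FPKM, with glyphosate+2,4-D 70.9, 73.1 and 69.9, and with AMPA+2,4-D 64.7, 65.0 and 67.1. Every exposed library was above every unexposed one, as it was for 25.3% of all genes tested when separation in either direction is counted. The difference was 0.53 (SE 0.04) with glyphosate, AMPA and glyphosate+2,4-D, a 1.45-fold rise of FPKM + 1, and 0.44 with 2,4-D and 0.41 with AMPA+2,4-D. The largest of the 5 limma adjusted p-values was 2.95e-07. In order of mean level, AMPA (71.4), glyphosate (71.3) and glyphosate+2,4-D (71.3) came before 2,4-D (66.8) and AMPA+2,4-D (65.6). Neighbours in that order overlapped, and only the step down to unexposed cells did not. Recovered reads on B2M numbered 5297 to 10240 per library, so counting error is small beside these differences.

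HLA-E (ENSG00000204592, chr6:30489467-30494205, plus strand), the heavy chain read by natural killer cell receptors, lay at 36.0, 38.1 and 41.0 FPKM (lowest, median, highest) in unexposed cells. Glyphosate libraries gave 46.8, 47.9 and 47.7 FPKM and AMPA libraries 47.2, 47.5 and 47.1. The 2,4-D libraries gave 45.3, 42.3 and 46.2 FPKM, those with glyphosate+2,4-D 44.8, 49.3 and 45.8, and those with AMPA+2,4-D 41.4, 42.6 and 40.5. In 4 exposures all libraries were above all unexposed ones, and AMPA+2,4-D overlapped them. Log2 differences were 0.30 with glyphosate and with AMPA, 0.21 with 2,4-D, 0.28 with glyphosate+2,4-D and 0.11 with AMPA+2,4-D (SE 0.04). The limma adjusted p was at most 0.000531 in the first 4 and 0.0365 in AMPA+2,4-D. That last call was lost on the TPM scale, in which values of a library sum to a fixed total (difference 0.00), without unexposed libraries 1 to 3 together (0.05), and without any of unexposed libraries 1, 2 and 3 or AMPA+2,4-D libraries 1 and 2 alone (0.09 to 0.11).

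HLA-C (ENSG00000204525, chr6:31268749-31272130, minus strand), a classical heavy chain and the main ligand of killer-cell immunoglobulin-like receptors, lay at 20.7, 23.0 and 26.1 FPKM (lowest, median, highest) in unexposed cells. It stood at 26.9, 28.8 and 29.2 FPKM with glyphosate and at 31.3, 27.9 and 30.1 with AMPA, above all unexposed libraries in both. With 2,4-D it stood at 28.7, 24.9 and 26.7 FPKM and with glyphosate+2,4-D at 26.5, 25.6 and 29.1, partly within the unexposed range. With AMPA+2,4-D the values were 22.5, 23.3 and 25.5 FPKM, wholly within it. The differences were 0.27, 0.34, 0.19, 0.20 and 0.02 (SE 0.07) in the order glyphosate, AMPA, 2,4-D, glyphosate+2,4-D and last AMPA+2,4-D. Their limma adjusted p-values were 0.00344, 0.0005, 0.0322, 0.0202 and 0.806. The calls with 2,4-D and glyphosate+2,4-D were lost on the TPM scale (differences of 0.10 and 0.08), where the uncalled AMPA+2,4-D difference turned to -0.09. The 2,4-D call was also lost without unexposed library 2 or 3 or without 2,4-D library 1 or 3 (0.14 to 0.19), and the glyphosate+2,4-D call without its library 3 (0.15).

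HLA-B (ENSG00000234745, chr6:31269491-31357188, minus strand), the most polymorphic classical heavy chain, was read at 1.39, 1.72 and 2.71 FPKM (lowest, median, highest) in unexposed cells. The 3 libraries gave 2.34, 1.89 and 2.63 FPKM with glyphosate, 2.30, 1.78 and 2.60 with AMPA, and 2.11, 1.98 and 1.73 with 2,4-D. They gave 1.73, 1.66 and 2.01 FPKM with glyphosate+2,4-D and 1.66, 1.55 and 1.82 with AMPA+2,4-D. All exposures overlapped the unexposed libraries. Differences ran from -0.13 to 0.17 (SE 0.12) with limma adjusted p-values of 0.265 to 0.962, and the 95% intervals of the 5 exposures reached from -0.38 to 0.42. Recovered reads numbered 72 to 166 per library, the fewest among the tested members. Of its exon bases, 17.8% also lie in a gene on the other strand and 1.15% in one on the same strand, where its annotated span runs into HLA-C. The labels do not say that counting used strand, so reads in such bases cannot be assigned with certainty.

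HLA-F (ENSG00000204642, chr6:29722775-29738528, plus strand), a nonclassical heavy chain, had at most 2 recovered reads in any library. It was above 0 in 2 unexposed libraries (0.0224 and 0.0115 FPKM) and in 1 of glyphosate+2,4-D (0.0155 FPKM), and is listed at 0 or not listed in the others. No comparison was made at this depth.

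TAP1 (ENSG00000168394, chr6:32845209-32853978, minus strand), a subunit of the peptide transporter, lay at 5.32, 5.99 and 7.07 FPKM (lowest, median, highest) in unexposed cells. Glyphosate libraries gave 5.29, 4.98 and 4.65 FPKM, AMPA libraries 5.51, 4.72 and 4.95, and 2,4-D libraries 4.48, 5.21 and 5.46. Libraries of glyphosate+2,4-D gave 5.00, 5.74 and 4.68 FPKM and those of AMPA+2,4-D 4.95, 5.10 and 4.05. Glyphosate and AMPA+2,4-D lay wholly below the unexposed libraries, and the other 3 exposures overlapped them. The differences were -0.24, -0.22, -0.22, -0.20 and -0.31 (SE 0.09) in the order glyphosate, AMPA, 2,4-D, glyphosate+2,4-D and last AMPA+2,4-D, with limma adjusted p-values of 0.026, 0.039, 0.0405, 0.0602 and 0.00583. On the TPM scale TAP1 was lower in all 5, by -0.46 to -0.34. The calls with glyphosate, AMPA and 2,4-D were each lost when unexposed library 5 alone was left out (-0.20, -0.18 and -0.18), and those with AMPA and 2,4-D also without unexposed library 1 or 6 (-0.22 to -0.19). They were lost as well without glyphosate library 2 or 3, AMPA library 2 or 3, or 2,4-D library 1 or 2 (-0.24 to -0.15), and the AMPA+2,4-D call without its library 3 (-0.22). Of TAP1 exon bases, 9.49% lie in a gene on the other strand.

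TAP2 (ENSG00000204267, chr6:32821833-32838780, minus strand), the other transporter subunit, lay between 0.754 and 0.961 FPKM in unexposed cells and between 0.648 and 0.927 in exposed cells, with overlapping ranges in every exposure. When no filter was applied, its differences ran from -0.10 to -0.02 (SE 0.06), and the smallest limma adjusted p of the 5 was 0.265. Another gene on the same strand shares 32.3% of its exon bases, so its counts are uncertain.

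TAPBP (ENSG00000231925, chr6:33299694-33314387, minus strand), tapasin, lay at 7.84, 8.55 and 9.16 FPKM (lowest, median, highest) in unexposed cells. It fell to 6.79, 7.58 and 7.73 FPKM with glyphosate, to 7.21, 6.83 and 6.44 with AMPA and to 6.47, 6.93 and 6.33 with 2,4-D. With glyphosate+2,4-D it fell to 6.24, 6.34 and 6.59 FPKM and with AMPA+2,4-D to 6.03, 6.16 and 6.75. Every exposed library was below every unexposed one. Differences were -0.18 with glyphosate, -0.27 with AMPA, -0.32 with 2,4-D, -0.36 with glyphosate+2,4-D and -0.37 with AMPA+2,4-D (SE 0.05), and the largest limma adjusted p was 0.00867. Glyphosate stood nearest to unexposed cells in this order, and its call was lost when its library 1 was left out (-0.13). Neighbouring exposures overlapped.

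The scale of the deposited values bears on these directions. Divided by the reads recovered from the same library, the total that the FPKM scaling implies came to 1.03 to 1.08 for unexposed cells and to 0.942 to 1.01 after exposure, so the divisor per read differed between the groups. Rescaled to TPM over the same 13450 genes, the median difference of all genes moved to between -0.14 and -0.08 in the 5 exposures. Of the genes called, the share with a higher level then fell from between 51.7% and 53.1% to between 29.9% and 37.6%. On that scale B2M remained higher in all 5 exposures, by 0.30 to 0.44, and TAPBP lower in all 5, by -0.52 to -0.29. HLA-E ranged from 0.00 to 0.20 and HLA-C from -0.09 to 0.18, so the smallest heavy chain differences did not keep their size. Median-of-ratios factors of the deposited values were 1.002 to 1.012 over the 21 libraries. With that scaling the median difference of all genes was 0.0009 to 0.011 in the 5 exposures. Which scale is nearer to the RNA content of the cells was not tested.

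The unexposed libraries numbered 1 to 3 and 4 to 6 stood apart from each other over the whole table: 45.4% of genes tested had ranges that did not overlap between these sets. Among the members, HLA-E, HLA-B and TAPBP did not overlap. HLA-E lay at 36.0 to 37.6 FPKM in libraries 1 to 3 and at 38.7 to 41.0 in 4 to 6, and HLA-B at 1.39 to 1.70 and 1.74 to 2.71. TAPBP lay at 8.70 to 9.16 FPKM in libraries 1 to 3 and at 7.84 to 8.40 in 4 to 6. For HLA-E and TAPBP the second set was thus on the side of the exposed libraries. B2M overlapped, at 47.1 to 48.6 and 47.7 to 51.7 FPKM, as did HLA-C and TAP1. TAP1 was higher in the second set, with a mean of 6.52 against 5.61 FPKM, which is away from the exposed libraries.

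Each exposure was therefore also set against each set of unexposed libraries. Against libraries 1 to 3, 5 of the 6 tested members were called with glyphosate (57.3% of all genes tested) and with AMPA (57.8%), and 4 with 2,4-D (54.0%), with glyphosate+2,4-D (54.6%) and AMPA+2,4-D (55.1%). Against libraries 4 to 6, the counts were 4 with glyphosate (50.9%), 5 with AMPA (51.2%) and 4 with 2,4-D (46.3%), glyphosate+2,4-D (46.5%) and AMPA+2,4-D (50.1%). B2M was higher against both sets in all 5 exposures, by 0.45 to 0.57 against the first and 0.38 to 0.50 against the second. TAPBP was lower against both sets in all exposures except glyphosate against libraries 4 to 6 (-0.11, limma adjusted p = 0.0814). TAP1 passed against libraries 4 to 6 in all 5 exposures, by -0.40 to -0.29, but against libraries 1 to 3 in AMPA+2,4-D alone (-0.22, limma adjusted p = 0.049). HLA-E was higher against libraries 1 to 3 in all 5 exposures, by 0.17 to 0.36, and against libraries 4 to 6 in 4, by 0.15 to 0.24, but not with AMPA+2,4-D (0.05, limma adjusted p = 0.279). HLA-C was higher against both sets with glyphosate (0.35 and 0.18) and AMPA (0.42 and 0.25). HLA-C with 2,4-D and glyphosate+2,4-D passed against the first set (0.27 and 0.29) and not against the second (0.10 and 0.12). HLA-B changed sides: against libraries 1 to 3 it was higher with glyphosate (0.34, limma adjusted p = 0.0186) and AMPA (0.31, adjusted p = 0.0297), and against 4 to 6 it was lower with AMPA+2,4-D (-0.30, adjusted p = 0.0401).

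**Figure D2:**
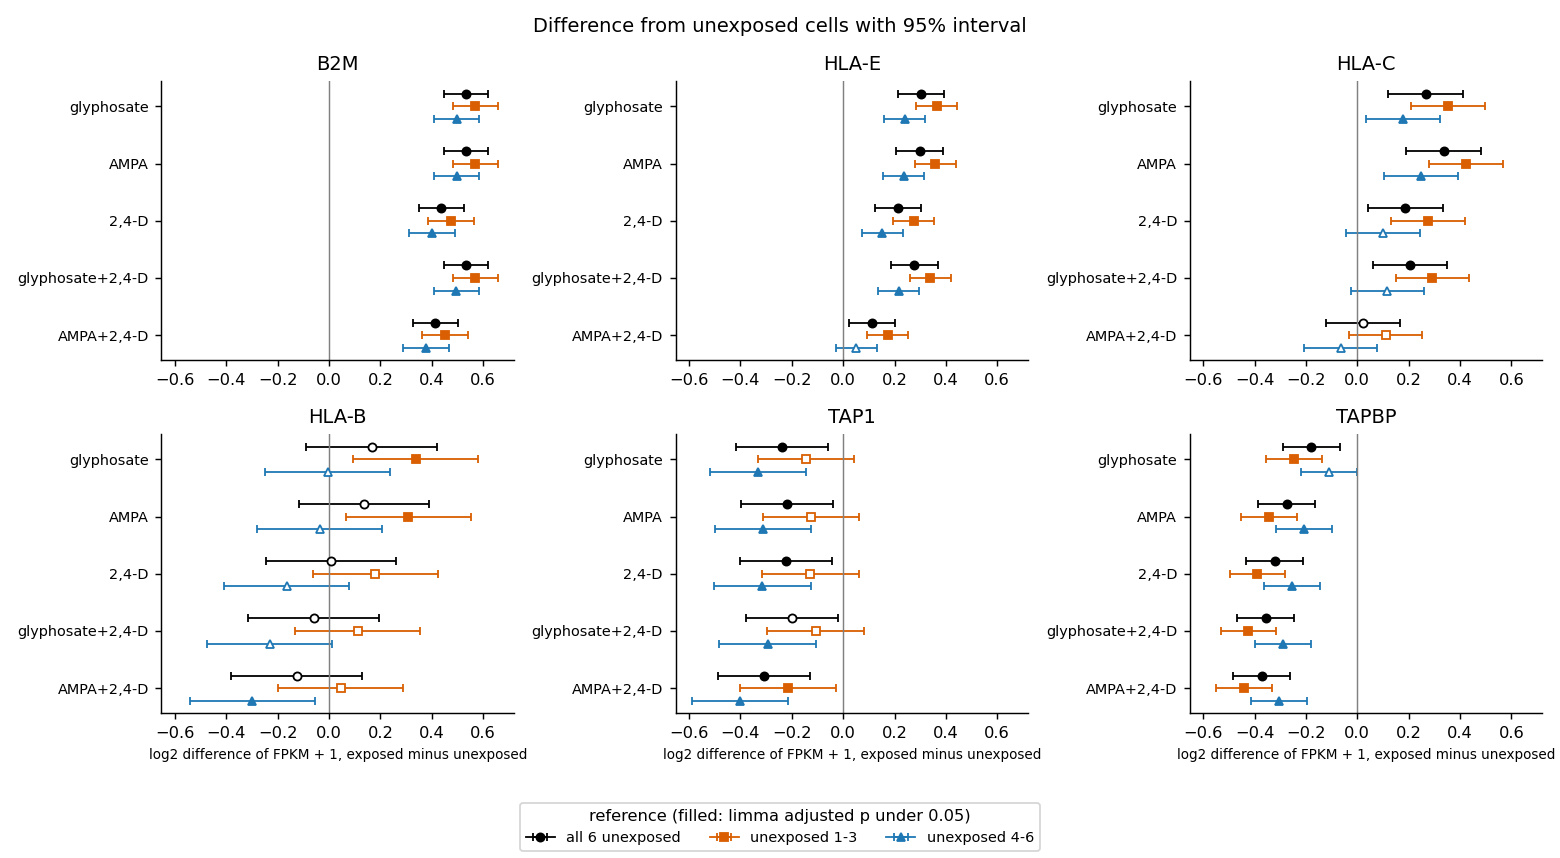
Log2 difference of FPKM + 1, exposed minus unexposed, for the 6 tested genes in 5 exposures, with 95% intervals from limma, against all 6 unexposed libraries (black circles), libraries 1 to 3 (orange squares) and 4 to 6 (blue triangles); filled symbols have an adjusted p under 0.05. B2M stays at 0.38 to 0.57 under each reference, while HLA-B moves across 0 with the reference used.

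The exposures were next compared with one another, a set of comparisons that holds no unexposed library. Between AMPA and glyphosate limma called 0 members and 0% of all genes tested. At an unadjusted p under 0.05 the count was 0 members, and voom on recovered reads also called 0. The difference of AMPA minus glyphosate was 0.00 for B2M (95% interval -0.10 to 0.10), 0.00 for HLA-E (-0.11 to 0.10), 0.07 for HLA-C (-0.10 to 0.24) and -0.10 for TAPBP (-0.22 to 0.03). AMPA is the metabolite of glyphosate and the concentrations differed, 34 against 5.6 µM, so these are not responses at a matched dose.

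Adding 2,4-D to glyphosate called no member by limma and 0% of all genes, and voom called 0. At an unadjusted p under 0.05, which 7.95% of all genes reached, there was 1 member, TAPBP (-0.18, 95% interval -0.31 to -0.05, limma adjusted p = 0.441). Glyphosate+2,4-D against 2,4-D alone called 0 members (0% of all genes), with 0 at an unadjusted p under 0.05 and 0 by voom, and B2M differed by 0.10 (-0.00 to 0.19). AMPA+2,4-D against 2,4-D alone also called 0 (0% of all genes), with 0 unadjusted and 0 by voom. The heavy chains lay lower there, HLA-C by -0.16 (-0.33 to 0.00) and HLA-E by -0.10 (-0.20 to 0.00).

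AMPA+2,4-D against AMPA called 1 member, HLA-C, beside 2.71% of all genes tested. HLA-C was lower by -0.31 (SE 0.08, limma adjusted p = 0.0458), its highest AMPA+2,4-D library at 25.5 FPKM lying under the lowest AMPA library at 27.9. HLA-E lay lower by -0.18 (limma adjusted p = 0.0537) and B2M by -0.12 (adjusted p = 0.185), both also without overlap. The HLA-C call was lost when any 1 of the 6 libraries in this comparison was left out, at differences of -0.36 to -0.28, and on the TPM scale (-0.27). Over all exposed libraries, those with 2,4-D against those without, limma called 0 members beside 1.97% of all genes. At an unadjusted p under 0.05, which 17.3% of all genes reached, there were 5 members, HLA-B (-0.21), HLA-C (-0.16), HLA-E (-0.10), B2M (-0.07) and TAPBP (-0.12), all lower with 2,4-D, and voom called 0.

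The interaction, defined as mixture plus unexposed minus both single exposures, gives the departure of a mixture's difference from the sum of the single differences. The unexposed libraries enter each term, so an offset shared by all exposed libraries cannot be told apart from it. For glyphosate and 2,4-D it passed for 2 members, B2M (-0.44, SE 0.06) and HLA-E (-0.24, SE 0.07), beside 33.4% of all genes tested. For AMPA and 2,4-D it passed for 4, B2M (-0.56), HLA-C (-0.50, SE 0.11), HLA-E (-0.40) and TAPBP (0.22, SE 0.08), beside 36.6% of all genes. In each of these the mixture stood closer to unexposed cells than the summed single differences. B2M shows it, at 0.53 with glyphosate, 0.44 with 2,4-D and 0.53 with both. The TAPBP interaction of AMPA and 2,4-D lost its call in 13 of 27 alternative analyses, over which it ran from 0.16 to 0.39.

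The members did not keep fixed proportions. The ratio of B2M to HLA-E was 1.23 to 1.35 in unexposed libraries and 1.44 to 1.66 in exposed ones, without overlap. HLA-C to HLA-E overlapped, at 0.566 to 0.674 and 0.519 to 0.664, as did TAP1 to TAPBP, at 0.604 to 0.901 and 0.601 to 0.905. Over 21 libraries Pearson's r of log2 values was 0.91 between B2M and HLA-E and 0.81 between HLA-C and HLA-E. Within the 15 exposed libraries these were 0.81 and 0.69. B2M and TAPBP were at -0.81 over all libraries and at 0.25 among the exposed ones. These correlations describe libraries that share depth, scaling and exposure group.

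**Figure D3:**
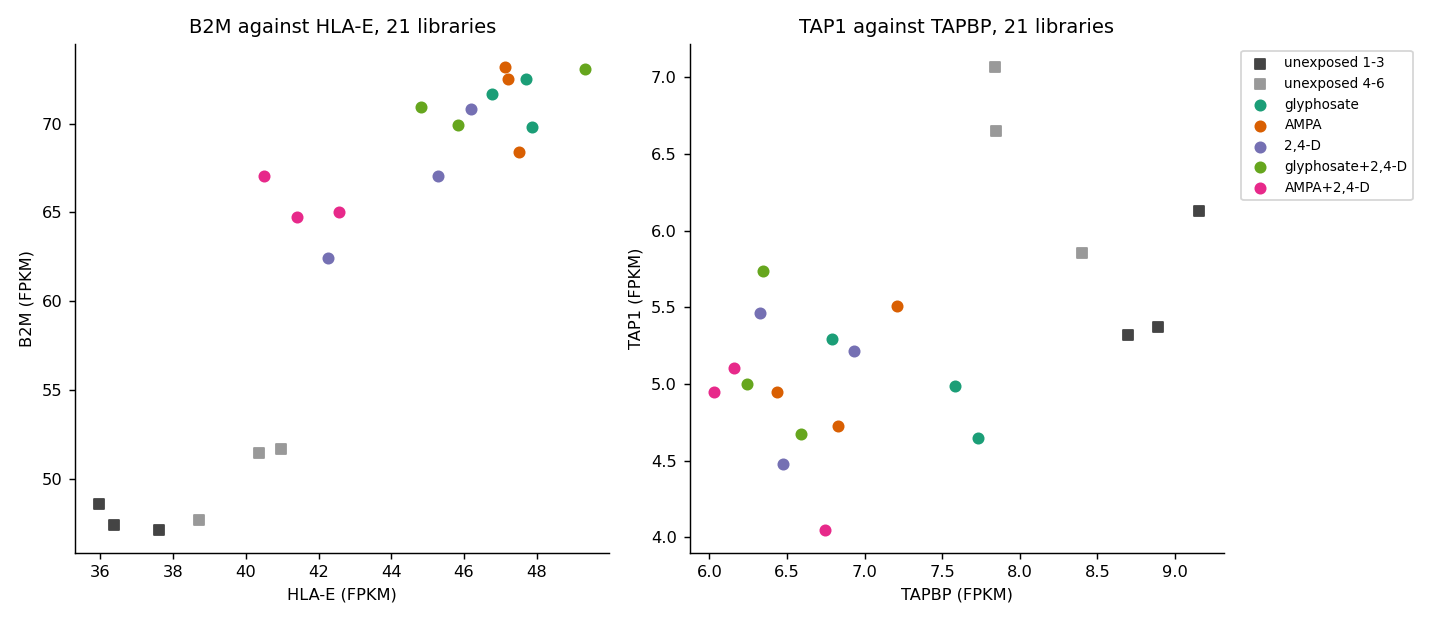
B2M against HLA-E (left) and TAP1 against TAPBP (right) in FPKM, 1 point per library, squares for unexposed and circles for exposed libraries; axes do not start at 0. On the left the exposed libraries lie above 62 FPKM of B2M and the unexposed ones below 52; on the right TAPBP parts the same libraries while TAP1 overlaps.

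The tested protein-coding genes whose log2 values followed each member most closely over the 21 libraries were also listed, by Pearson's r among 10511 genes. For B2M they were LAPTM4A, a lysosomal membrane protein (0.99), and the ribosomal protein genes RPS3A (0.99) and RPL10 (0.99). For HLA-E they were ORMDL3, a regulator of sphingolipid synthesis (0.98), GPX4, which reduces lipid peroxides (0.98), and GNAS, a G protein subunit (0.97). HLA-C was followed by the receptor phosphatase PTPRF (0.90), the collagen lysyl hydroxylase PLOD1 (0.90) and ASMTL (0.89), and HLA-B by REXO5 (0.78), the Notch co-activator MAML1 (0.74) and CDC42BPB (0.73). TAP1 was followed by the sorting nexin SNX21 (0.89), the septin SEPT6 (0.88) and the adaptor SLA2 (0.86), and TAPBP by the RNA-binding protein DAZAP1 (0.96) and by ARRDC1 (0.92). No other member was among the 3 closest genes of any member.

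Upstream of the transporter, the immunoproteasome list held 5 genes, 4 of them tested. Higher calls numbered 0 to 2 per exposure and lower calls 0 to 2, with list medians of -0.13 to -0.03. Beside them, 24.9% to 28.0% of all genes tested were higher and 22.5% to 25.0% lower. PSMB8, a catalytic subunit that interferon induces, was 5.36 ± 0.624 FPKM (SD, n = 6) in unexposed cells and was lower with AMPA (-0.30, limma adjusted p = 0.0108) and AMPA+2,4-D (-0.29, adjusted p = 0.0134). PSMB10, another such subunit, was 2.32 ± 0.32 FPKM and was lower with AMPA (-0.31), glyphosate+2,4-D (-0.34) and AMPA+2,4-D (-0.38). PSMB9, encoded beside TAP1, lay at 0.142 to 0.352 FPKM in unexposed and 0.0556 to 0.22 in exposed libraries and did not pass the filter. When no filter was applied, its differences ran from -0.17 to -0.05 (SE 0.05). It was then lower with 2,4-D (limma adjusted p = 0.031) and AMPA+2,4-D (limma adjusted p = 0.0184) and not called in the other exposures. For PSMB9 the comparison with either set of unexposed libraries is not given. The activator subunit PSME2 was higher in 4 exposures. Among 4 constitutive proteasome genes PSMB5 was higher in all 5 exposures (0.10 to 0.21) and the activator PSME3 lower in all 5 (-0.29 to -0.18). Several of these calls were lost against 1 set of unexposed libraries. Against libraries 1 to 3 these were both PSMB8 calls (-0.23), PSME2 with glyphosate (0.10), and PSMB5 with AMPA+2,4-D and with 2,4-D (0.09). Against libraries 4 to 6 they were PSMB10 with AMPA (-0.23) and glyphosate+2,4-D (-0.25), and PSME3 with glyphosate, AMPA and AMPA+2,4-D (-0.08 to -0.04).

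Of 10 tested chaperones and peptidases that load and trim class I peptides, 5 to 7 per exposure were lower and 1 or 2 higher, with list medians of -0.21 to -0.16, beside 22.5% to 25.0% of all genes tested that were lower. Against unexposed libraries 1 to 3 alone 4 to 6 were lower, and against 4 to 6 alone 5 to 7. HSPA5, the general chaperone of the endoplasmic reticulum, was at 1905 ± 150 FPKM (SD, n = 6) in unexposed cells and 1196 to 1438 in exposed ones, a difference of -0.61 to -0.44. PDIA3, the thiol oxidoreductase bound to tapasin, was at 326 to 373 FPKM in unexposed and 259 to 310 in exposed libraries (-0.39 to -0.22). CALR, the lectin chaperone of the loading complex, was at 981 to 1058 and 811 to 918 FPKM (-0.29 to -0.18), and ERAP1, which trims peptides, had means of 12.3 FPKM in unexposed and 10.4 in exposed libraries (-0.26 to -0.17). None of these 4 overlapped between exposed and unexposed libraries, and all 4 were called in each exposure. CANX, the membrane-bound lectin chaperone, passed with AMPA+2,4-D alone, where it was higher (0.14, limma adjusted p = 0.00587). BCAP31, which helps class I molecules leave the endoplasmic reticulum, was higher in all 5 exposures (0.14 to 0.31).

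Of 19 transcriptional regulators 18 were tested, with 6 to 8 higher and 5 to 7 lower per exposure and list medians of 0.00 to 0.06. Of all genes tested, 24.9% to 28.0% were higher and 22.5% to 25.0% lower per exposure. With AMPA+2,4-D, 5 regulators were lower against all 6 unexposed libraries (24.3% of all genes) and 4 against libraries 4 to 6 alone. Not every regulator named below as lower in all 5 exposures thus kept its call against that set. RFX5, which binds the X box of MHC promoters, was at 6.66 to 8.89 FPKM in unexposed and 4.21 to 5.96 in exposed libraries and was lower in all 5 exposures (-0.69 to -0.47). IRF1, the interferon-induced activator of class I promoters, was at 1.60 to 2.73 and 0.985 to 1.54 FPKM and was also lower in all 5 (-0.56 to -0.45). For both, unexposed libraries 4 to 6 lay between libraries 1 to 3 and the exposed ones. The NF-Y subunit gene NFYC was lower in all 5 exposures (-0.45 to -0.34) and IRF3 higher in all 5 (0.37 to 0.45). The differences of the other NF-Y subunit genes from all 6 unexposed libraries were upward. They were 0.20 to 0.29 for NFYB, called in all 5 exposures, and 0.04 to 0.205 for NFYA, called in 1. Of the other RFX genes, RFXAP differed by -0.54 to -0.26 (called in 5) and RFXANK by 0.09 to 0.25 (called in 2). CREB1 differed by -0.22 to -0.13, and RELA, a kappa B factor gene, by 0.13 to 0.32, both called in 5. NFYA, NFYB and RFXANK overlapped between exposed and unexposed libraries. NLRC5, the class I co-activator, was at 1.01 ± 0.22 FPKM (SD, n = 6) and was lower with AMPA (-0.24), 2,4-D (-0.28) and glyphosate+2,4-D (-0.24). NLRC5 was called in none of the 5 exposures against libraries 4 to 6 (-0.14 to -0.07) and in all 5 against libraries 1 to 3 (-0.41 to -0.34). Its exposed libraries (0.565 to 0.899 FPKM) overlapped unexposed libraries 4 to 6 (0.754 to 0.968) and lay below libraries 1 to 3 (1.14 to 1.27). NLRC5 reached 1 FPKM in libraries 1 to 3 alone, so it passed the filter only through the set where it was highest. The filter thus favoured its lower calls against that set and against all 6 unexposed libraries.

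**Figure D4:**
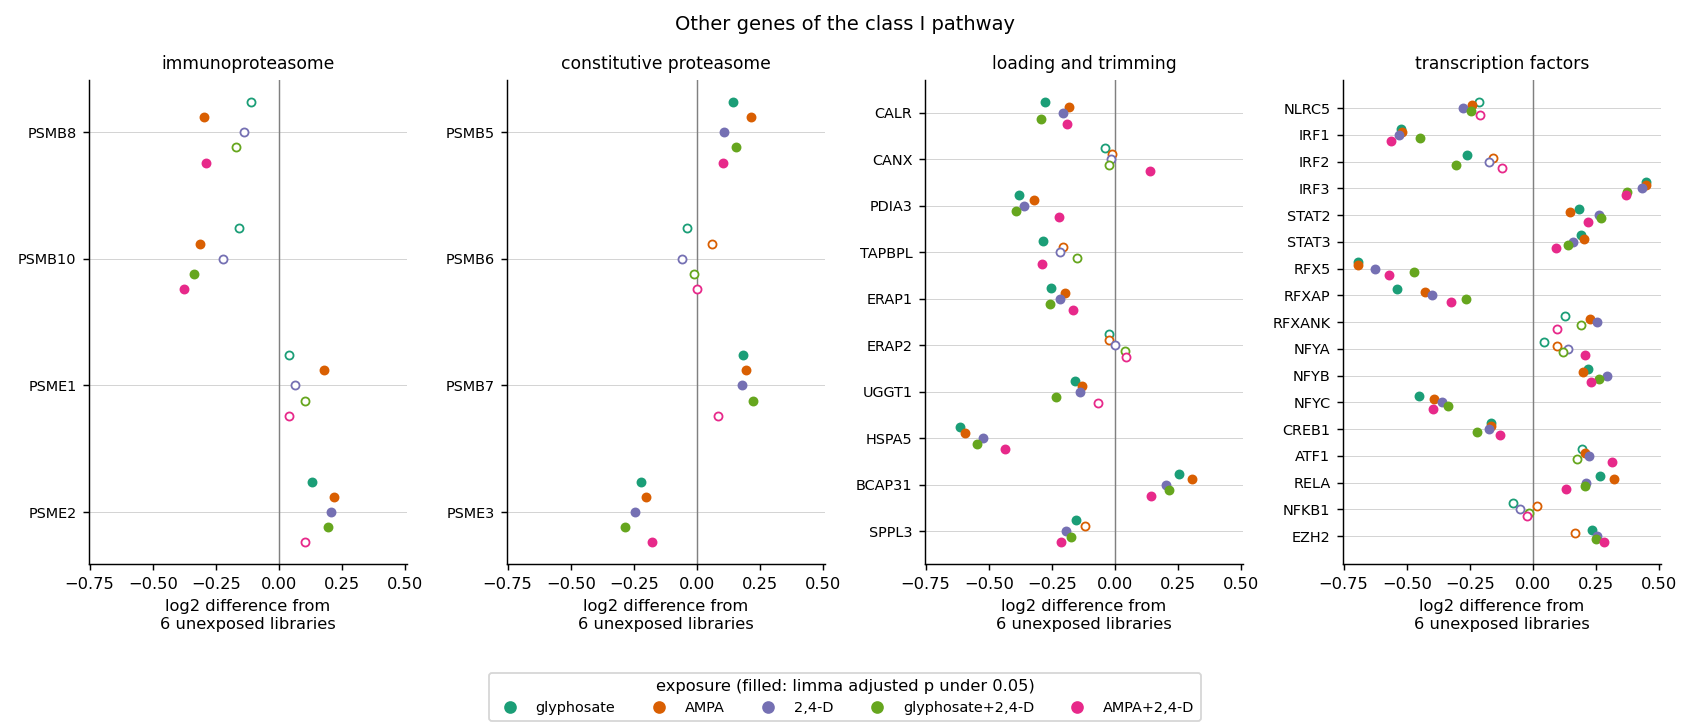
Log2 difference of FPKM + 1 from the 6 unexposed libraries for tested genes of the immunoproteasome, the constitutive proteasome, peptide loading and trimming, and transcription factors and co-activators, as far as reported here; 1 point per exposure, filled where the limma adjusted p is under 0.05. HSPA5, PDIA3, CALR, ERAP1, RFX5, IRF1 and NFYC lie left of 0 with filled points in all 5 exposures, and BCAP31 and IRF3 right of it.

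Interferon target genes moved in both directions. Of 20 listed, 13 were tested, with 3 or 4 higher and 3 to 5 lower per exposure and list medians of -0.04 to 0.07. These counts stand beside 24.9% to 28.0% of all genes tested that were higher and 22.5% to 25.0% that were lower. ISG15, a ubiquitin-like modifier, was higher in all 5 exposures, at 16.0 to 27.1 FPKM in unexposed and 32.9 to 44.2 in exposed libraries (0.70 to 0.92). IFI35 (-0.92 to -0.63), the antiviral membrane protein gene IFITM3 (-0.71 to -0.42) and the antiviral enzyme gene OAS1 (-0.56 to -0.31) were lower in all 5. The OAS1 call with AMPA+2,4-D was lost against libraries 4 to 6 (-0.16, limma adjusted p = 0.0764).

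Hepatocyte and other cell markers were read beside these results. All 9 hepatocyte markers were detected, and in each exposure 7 were higher and 1, the transcription factor HNF4A, was lower, beside 24.9% to 28.0% of all genes tested that were higher. List medians were 0.67 to 0.80 against unexposed libraries 1 to 3, with 8 higher and 1 lower, and 0.23 to 0.38 against libraries 4 to 6, with 6 or 7 higher and 1 or 2 lower. Their summed level was 7091 to 7480 FPKM in unexposed libraries 1 to 3, 9486 to 10656 in 4 to 6 and 10810 to 12739 in exposed libraries. Of 14 markers of blood, endothelial and connective tissue cells 9 are listed in the tables, and 6 of these were below 1 FPKM in every library. Among the others were LYZ at 324 to 625 FPKM and CD74 at 17.9 to 28.9. The summed level of the 9 was 350 to 369 FPKM in unexposed libraries 1 to 3, 596 to 645 in 4 to 6 and 496 to 651 in exposed libraries, nearly all of it LYZ. The part of these shifts in the class I differences was not tested. Recovered reads numbered 15.2 to 24.4 M per library.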

How the data were processed

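RNA of 6 unexposed and 15 exposed C3A samples was sequenced from SMARTer libraries, per the labels, which do not state strand. The submitters' processing notes name HISAT2 2.0.5, featureCounts 1.5.0-p3 and GRCh38. The authors deposited FPKM values in 6 tables, with each group in its own; their scaling and row filter are not given in the sources used here. Every table lists 23375 of the 28808 genes, and a gene that a table leaves out was set to 0. Gene start and end equalled GENCODE 29 for 28803 genes. FPKM times gene length, divided by a step found for each library (what 1 read is worth there), gave whole read numbers, within 0.1 read, for 100% of values.

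Genes with at least 1 FPKM in at least 3 libraries were fitted with limma 3.58.1 (R 4.3.3, data.table version 1.17.8) on log2(FPKM + 1), with group means over 21 libraries, a mean-variance trend and Benjamini-Hochberg adjustment per comparison, called under 0.05. The code was tested on simulated data. Exposures were compared with all unexposed libraries, each set of unexposed libraries and each other. Voom on recovered reads called 6385 to 7286 genes against unexposed cells. Members and gene lists were chosen with earlier results of these data known. The text names all 8 members and for each the 3 genes most like it. From each list it names at most 4 genes called the same way in all 5 exposures. Besides these it names PSMB8, PSMB9, PSMB10, NLRC5, IRF1, CALR, CANX, PDIA3 and ERAP1. PSME2, PSME3, PSMB5, NFYA, NFYB, RFXAP, RFXANK, CREB1, RELA and the markers were named beside them. Some genes that this rule names are not reported here. Alternatives were a pseudocount of 0.1, no filter, TPM, median-of-ratios scaling, voom, the compared groups alone, a replicate block and leaving out libraries.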

Additional observations from a re-analysis of the deposited data

Results flagged for a closer look

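Interactions that passed the test in members were singled out because the difference of a mixture from unexposed cells then departed from the sum of the single differences. For glyphosate and 2,4-D the interaction was -0.44 for B2M (limma adjusted p = 4.58e-05) and -0.24 for HLA-E (adjusted p = 0.00946). For AMPA and 2,4-D it was -0.56 for B2M (limma adjusted p = 3.47e-06), -0.50 for HLA-C (adjusted p = 0.00123), -0.40 for HLA-E (adjusted p = 0.000159) and 0.22 for TAPBP (adjusted p = 0.0388). Both interactions use the unexposed libraries, so an offset that all exposed libraries share cannot be told apart from them, and 33.4% and 36.6% of all genes tested passed them. The TAPBP call was lost in 13 of 27 alternatives. No library of the unexposed group stood apart from the other 5 by Dixon's criterion in the 7 members examined, all but HLA-F.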

How the results depend on the processing

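Over all alternatives no member's called difference reversed: of 1536 values 1421 stayed on their side of the threshold, 82 lost the call and 33 gained one. Of the 1421, 66 changed sign, none of them called. The 1536 values include differences not called as reported, which had no call to lose. Calls were lost most often for the TAPBP interaction of AMPA and 2,4-D (13 of 27 alternatives) and HLA-C with AMPA+2,4-D against AMPA (12 of 16). Next came HLA-E with AMPA+2,4-D (12 of 21) and HLA-C with 2,4-D (10 of 20), both against unexposed cells. B2M against unexposed cells kept its call in all 5 exposures under all alternatives. Shares in brackets are of all genes tested. The count of members called with AMPA+2,4-D against AMPA, 1 as reported (2.71%), was 2 with a pseudocount of 0.1 (2.99%). It was 0 with no filter (0.61%), TPM (0.90%) or the compared groups alone (0.02%). The count with 2,4-D against unexposed cells, 5 as reported (47.4%), was 3 with no filter (22.9%) and with the compared groups alone (41.6%). With 2,4-D against without, 0 as reported (1.97%), it was 2 with the compared groups alone (6.35%). The interaction of glyphosate and 2,4-D, 2 as reported (33.4%), had 5 without unexposed libraries 4 to 6 (43.9%). Leaving out 1 library at a time gave 0 to 1 for AMPA+2,4-D against AMPA (0% to 6.16%). It gave 3 to 5 for 2,4-D against unexposed cells (39.1% to 48.5%). Alternatives chosen after seeing the data were scaling to recovered reads (0 for AMPA+2,4-D against AMPA), TPM over the same genes, and leaving out libraries 1 and 3 of AMPA+2,4-D, which gave 2 against unexposed cells (4 as reported) and 0 against AMPA. The cause of these moves was not tested.

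Replicate numbers did not pair libraries: the correlations of deviations of same-numbered exposed libraries ran from -0.06 to 0.09, and 8 of 15 libraries correlated best with their own number. A fit with a replicate block, in which unexposed libraries 4 to 6 have no partner, called 2 members with AMPA+2,4-D against AMPA (6.89% of all genes). It called 3 with 2,4-D against without (6.07%) and 5 in the interaction of glyphosate and 2,4-D (42.7%). The shares of all genes in the reported fit were 2.71%, 1.97% and 33.4%. Read numbers limit HLA-B, TAP2 and HLA-F most.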

Other observations

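Class I-like molecules share the fold of the heavy chains without presenting ordinary peptides. Of 11 such genes 8 are listed in the tables and 6 were tested. MICA and MICB, stress ligands of the natural killer cell receptor NKG2D, were higher in all 5 exposures. MICA lay at 5.70 to 6.74 FPKM in unexposed and 8.01 to 10.9 in exposed libraries (0.38 to 0.62 on the log2 scale), and MICB at 5.03 to 7.92 and 10.1 to 12.7 (0.64 to 0.77), neither overlapping. FCGRT, the heavy chain of the neonatal Fc receptor (-0.37 to -0.17), and MR1, which presents vitamin B metabolites (-0.43 to -0.28), were lower in all 5. Against unexposed libraries 1 to 3 alone FCGRT did not pass with glyphosate+2,4-D (-0.09), nor MR1 with either mixture (-0.11). MICA, FCGRT, MR1 and MICB also did not overlap between the 2 sets of unexposed libraries.

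Genes with a part in the turnover or sorting of class I chains and other proteins were lower or not called: of 7 tested, 4 or 5 per exposure were lower and 0 higher. Of all genes tested, 22.5% to 25.0% per exposure were lower and 24.9% to 28.0% higher. TMEM129, a ubiquitin ligase, lay at 8.49 to 9.59 FPKM in unexposed and 4.19 to 6.57 in exposed libraries (-0.74 to -0.52). HM13, the signal peptide peptidase whose products HLA-E presents, lay at 37.9 to 42.0 and 29.2 to 35.7 FPKM (-0.35 to -0.17), and the ubiquitin ligase SYVN1 differed by -0.20 to -0.13, which against libraries 1 to 3 did not pass with glyphosate (-0.10) or AMPA (-0.09). Of 10 interferon receptor and signalling genes, 4 to 6 per exposure were higher and 0 or 1 lower. Beside them, 24.9% to 28.0% of all genes tested were higher and 22.5% to 25.0% lower. Against unexposed libraries 1 to 3 alone 4 were higher and 2 lower in each exposure. Against libraries 4 to 6 alone 5 or 6 were higher and 1 or 2 lower. JAK1 (0.22 to 0.27), TYK2 (0.17 to 0.37), IFNGR2 (0.18 to 0.39) and SOCS3 (0.42 to 0.80) were higher in all 5 exposures against all 6 unexposed libraries. SOCS3 lay at 0.091 to 0.53 FPKM in unexposed and 0.65 to 1.39 in exposed libraries. It passed the filter only through exposed libraries, where it was higher, and this favoured its calls. All calls are limma adjusted p-values under 0.05 over all genes tested, of which 47.4% to 52.7% were called in an exposure.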
